A study of Mus musculus with 2 samples.

Results

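A total of 36 genes of the intestinal and secretory gut epithelium were followed in RNA-seq of 2 teratoma libraries, 1 from E14 cells and 1 from E14-Sox2TA/WT cells. The genes were chosen by symbol, as markers of goblet cells, enterocytes, crypt stem cells and enteroendocrine cells or as antimicrobial products, and all 36 were found among the 45777 genes of the mm10 table. E14 is a mouse embryonic stem cell (ESC) line with wild-type Sox2. In E14-Sox2TA/WT, 1 Sox2 allele encodes alanine in place of the threonine at residue 258, a site of O-GlcNAc modification, and the other allele is wild type. Both lines were grown as subcutaneous teratomas in BALB/c-nu mice, which lack a thymus but keep macrophages, neutrophils and stroma of their own, and tumours were taken 14 days after inoculation. The mutant line was made by genome editing and expanded from a colony grown out of single cells, and the files do not tell host RNA from tumour RNA. The labels name teratoma as the tissue although their protocol speaks of RNA from a cell line, and neither the labels nor the methods say whether a library came from 1 tumour or from several.

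The epithelium of the gut is renewed from Lgr5-positive stem cells at the base of the crypts. Their progeny become absorptive enterocytes, which carry a brush border of microvilli, or secretory cells, which include mucus-producing goblet cells, Paneth cells and hormone-producing enteroendocrine cells. The homeobox factors Cdx1 and Cdx2 give this epithelium its intestinal identity, and Hnf4a, Gata and Klf factors act with them in differentiated cells. In teratomas, glands lined by endodermal epithelium are among the usual tissues. Many of the genes are also used elsewhere, for example Chga and Chgb in neurons and Fabp1 and Vil1 in yolk sac endoderm.

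With 1 library per group, no difference has a replicate check, and no p-value can be given. The libraries held 50529171 reads on genes in E14 and 49030281 in E14-Sox2TA/WT. Mitochondrial genes held 5.17% and 9.70% of the TPM (a unit that scales reads by transcript length to a fixed total per library). Sox2 had 14585 and 8623 reads, and its alleles cannot be separated in these values. Summed over Ddx3y, Eif2s3y, Kdm5d and Uty, 4 genes of the Y chromosome, reads numbered 5453 in E14 and 0 in E14-Sox2TA/WT. None of the 36 genes lies on chromosome Y. Of 21949 protein-coding genes, 4716 in E14 and 3374 in E14-Sox2TA/WT were listed at 0 reads, whereas 328 and 432 had 1 to 3 reads.

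A gene was called higher or lower where its TPM differed more than 2-fold and reached at least 10 in at least 1 library. Folds carry a 95% Clopper-Pearson interval, which covers counting error only and compares the libraries, not the conditions. Where E14 had 0 reads, the fold is a lower bound against 3 reads. These bounds hold only where a listed 0 stands for no more than 3 reads, and low counts were scarce in both libraries. In bulk RNA, fewer cells of a type and less RNA per cell cannot be told apart.

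Promoters are shown for the strongest antimicrobial gene and its neighbour, for an enterocyte gene and a goblet cell gene with CDX matches, and for Aqp8, which had no match and the largest fold among genes with reads in both libraries. Each is the 250 bases before the RefSeq start in GRCm38.p6, printed 5′ to 3′ on the gene's strand, with matches to the CDX motif CNATAAA and the TATA box TATAAA in capitals on either strand. Reg3g and Reg3b stand at opposite ends of 1 cluster on chromosome 6, Reg3g at chr6:78468875-78469124 on the minus strand and Reg3b at chr6:78370635-78370884 on the plus strand. Fabp1 is at chr6:71199629-71199878, Agr2 at chr12:35992675-35992924 and Aqp8 at chr7:123462044-123462293, all on the plus strand.
Reg3g: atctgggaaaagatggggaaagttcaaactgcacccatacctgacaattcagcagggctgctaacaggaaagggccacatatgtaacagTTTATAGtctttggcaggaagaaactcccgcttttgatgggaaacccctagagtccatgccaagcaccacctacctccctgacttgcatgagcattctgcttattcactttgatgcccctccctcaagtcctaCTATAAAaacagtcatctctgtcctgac
Reg3b: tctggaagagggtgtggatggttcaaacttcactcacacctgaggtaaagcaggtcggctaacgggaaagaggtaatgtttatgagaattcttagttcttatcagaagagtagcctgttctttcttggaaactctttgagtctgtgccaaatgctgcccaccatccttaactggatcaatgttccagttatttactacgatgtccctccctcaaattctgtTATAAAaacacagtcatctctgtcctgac
Fabp1: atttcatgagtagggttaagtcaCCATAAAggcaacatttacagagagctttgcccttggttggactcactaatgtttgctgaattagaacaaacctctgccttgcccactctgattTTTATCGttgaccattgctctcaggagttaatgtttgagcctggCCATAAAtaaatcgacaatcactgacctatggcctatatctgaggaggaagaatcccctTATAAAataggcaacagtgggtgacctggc
Agr2: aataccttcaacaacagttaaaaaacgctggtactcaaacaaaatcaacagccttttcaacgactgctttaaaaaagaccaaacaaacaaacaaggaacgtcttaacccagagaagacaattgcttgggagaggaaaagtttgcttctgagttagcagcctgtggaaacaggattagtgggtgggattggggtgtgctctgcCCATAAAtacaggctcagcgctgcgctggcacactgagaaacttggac
Aqp8: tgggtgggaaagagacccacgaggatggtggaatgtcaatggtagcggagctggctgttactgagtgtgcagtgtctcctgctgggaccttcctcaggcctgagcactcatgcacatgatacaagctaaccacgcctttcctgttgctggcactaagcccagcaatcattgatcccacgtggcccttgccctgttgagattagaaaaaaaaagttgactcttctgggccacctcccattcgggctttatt

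In the Reg3g promoter, a CDX match and a TATA box overlap from 28 to 22 bases before the start, and a second overlapping pair lies from 161 to 155 bases before it. Reg3b had a TATA box, from 29 to 24 bases before its start, and had no CDX match. Aligned over 257 columns, the Reg3g and Reg3b windows were identical at 177, or 68.9%. Fabp1 had 3 CDX matches and a TATA box from 30 to 25 bases before the start, and Agr2 had 1 CDX match from 48 to 42 bases before it. Of the 25 genes with a promoter entry, 5 held the CDX letters (Agr2, Fabp1, Fabp2, Reg3g and Sis), or 20%, against 9.81% of all 32851 promoters. A gene counted if any of its entries matched, and Muc13 and Lypd8 had more than 1. The shares of all are over single promoters. The TATA letters were in 6 of the 25, or 24%, against 12.4% of all promoters, and 2 of the CDX matches overlapped a TATA match. The GATA letters AGATAA were in 3 (Guca2a, Lypd8 and Muc2) against 9.99% of all, and the HNF4 letters CAAAGTCC in 1 (Muc13) against 1.20%. These are matches of letters in a short window and say nothing of binding.

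Most of the gut genes that could be measured had more RNA in the E14-Sox2TA/WT library, with the neuroendocrine granins Chga and Chgb as the exceptions among called genes. By the call rule, 12 of the 36 genes reached a TPM of 10, of which 9 were higher, 2 were lower and 1, Tff3, was neither. Over all genes tested, 10.8% were higher and 18.7% were lower. The 9 higher genes were Agr2, Tff1, Tff2, Reg3g, Spink1, Lgals4, Aqp8, Anpep and Smoc2. Of the 12 genes, 9 reached a TPM of 10 in E14-Sox2TA/WT alone, which favours a difference in that direction, and 3 (Spink1, Chga and Chgb) reached it in both. At a TPM of at least 1 in either library, 28 genes remained, of which 23 were more than 2-fold above E14 and 2 more than 2-fold below, against 19.3% and 18.9% of all genes. Taking only genes that reached a TPM of 1 in E14, a filter that favours the opposite direction, 8 of 13 were more than 2-fold above and 2 below, against 10.9% and 21.1% of all genes. Of the 28 genes, 6 were listed at 0 reads in E14, against 2.54% of all genes at that TPM.

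The median log2 ratio of the 28 genes, with 1 added to each TPM, was 1.77, and that of all 18558 genes at that TPM was -0.06. On FPKM, which is not rescaled to a fixed sum, the median over all genes lay 0.17 higher. By group, the median was 3.50 for the 4 antimicrobial and inhibitor genes, 2.51 for 8 goblet cell genes and 1.75 for 9 enterocyte genes. It was 0.81 for 4 crypt stem cell genes and -2.06 for 3 enteroendocrine genes. Of the 28 genes, 15 reached a TPM of 1 in E14-Sox2TA/WT alone, which favours a high ratio. Most of the goblet cell and enterocyte genes were among them, whereas all 4 crypt stem cell genes reached it in E14. The order of these groups therefore partly reflects the filter. Without the enteroendocrine genes, the summed TPM was 51.8 in E14 and 677 in E14-Sox2TA/WT, and Spink1 and Reg3g alone held 59.9% of the latter. Chga, Chgb and Gcg held 81.2% of the summed TPM of the 36 genes in E14 and 6.56% in E14-Sox2TA/WT.

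**Figure D1:**
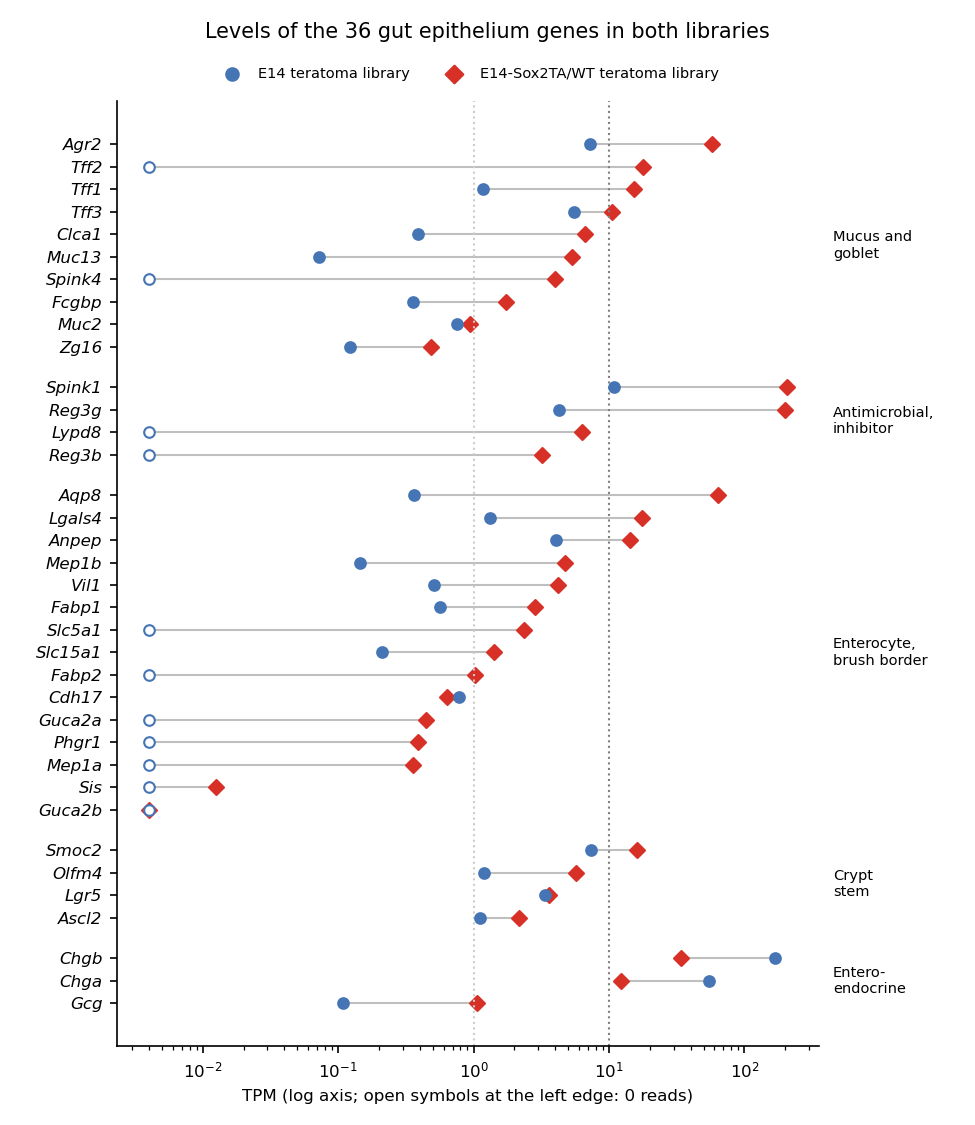
TPM of the 36 genes on a log axis in the E14 library (circles) and the E14-Sox2TA/WT library (diamonds), grouped by role, with open symbols at the left edge for 0 reads and dotted lines at a TPM of 1 and 10. Chga and Chgb are the highest in E14, at 54.6 and 169, and Spink1 and Reg3g in E14-Sox2TA/WT, at 207 and 198.

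Spink1 and Reg3g were the most abundant of the 36 transcripts in the E14-Sox2TA/WT library, while Reg3b and Lypd8 were far lower. Reg3g, a C-type lectin that kills Gram-positive bacteria at the gut surface, had 80 reads in E14 and 4122 in E14-Sox2TA/WT, a TPM of 4.25 and 198. It was 46.6-fold higher (37.4 to 58.9), a log2 ratio of 5.25. Reg3b, a related lectin, had 0 and 66 reads and a TPM of 0 and 3.2, at least 19.7-fold above E14 but short of the TPM for a call. Lypd8, a secreted protein that keeps flagellated bacteria off the colonic epithelium, had 0 and 177 reads and a TPM of 0 and 6.32, at least 52.8-fold. Spink1, a trypsin inhibitor made in the pancreas and the gut, was 18.9-fold higher (15.6 to 23), from a TPM of 10.9 to 207. Thus 2 of these 4 genes were called higher, and the other two stayed below a TPM of 10.

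Within the Reg cluster, which spans 98.0 kb of chromosome 6 from 78370885 to 78468874, the genes were not equally detected. Reg3d, Reg3a and Reg2, which lie between Reg3b and Reg1, had 0 reads in both libraries. Reg1 had 5 and 37 reads. Reg3g therefore held nearly all reads of the cluster in both libraries, with Reg3b at the other end a distant second in E14-Sox2TA/WT. Reg4, a family member outside this cluster, had 5 and 14 reads. None of the 50-nt stretches of Reg3g or Reg3b was shared with another gene's transcripts.

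**Figure D2:**
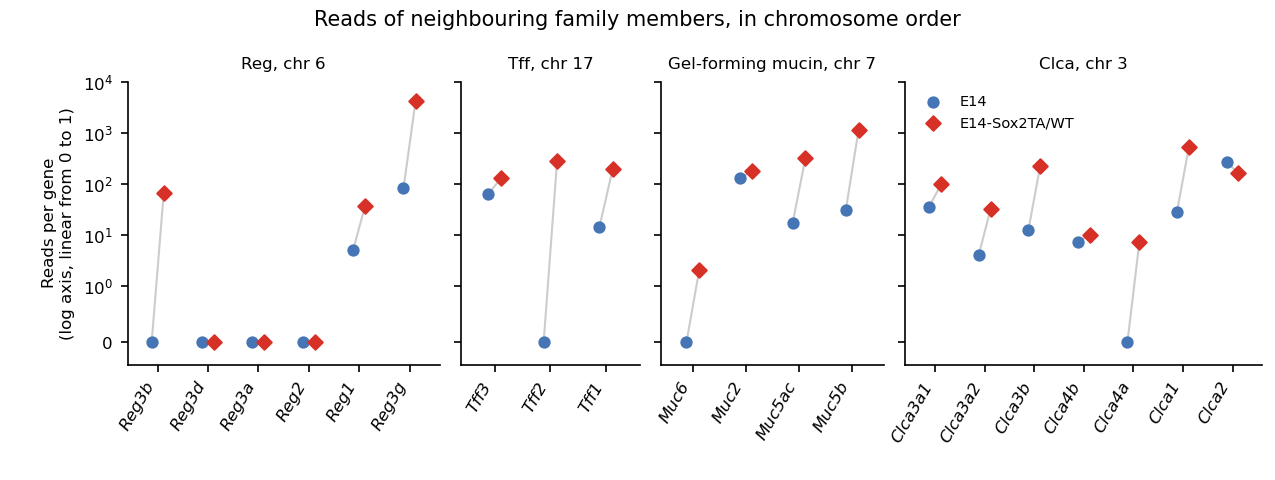
Reads per gene in the E14 library (circles) and the E14-Sox2TA/WT library (diamonds) for 4 families of neighbouring genes in chromosome order, on a log axis that is linear from 0 to 1. Reg3d, Reg3a and Reg2 sit at 0 in both libraries, while Reg3g went from 80 to 4122 reads and Tff2 from 0 to 272.

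Goblet cell genes fell into secreted trefoil peptides, folding factors and mucins, and the mucin that defines the cell barely differed. Muc2, the gel-forming mucin of intestinal mucus, had 126 and 174 reads and a TPM of 0.756 and 0.938, and its interval of 0.98 to 1.57 includes 1. Agr2, a protein disulfide isomerase needed to fold Muc2, was 7.99-fold higher (6.67 to 9.63), from a TPM of 7.24 to 57.9. Among the trefoil factors, peptides that protect the mucosa, Tff3 is the one of intestinal goblet cells, whereas Tff1 and Tff2 are mainly made in the stomach. Tff1 was 13-fold higher (7.54 to 24.1), from a TPM of 1.18 to 15.2. Tff2 was at least 81.2-fold higher, from 0 to 272 reads and to a TPM of 17.7. Tff3, at a TPM of 5.47 and 10.5, had a fold of 1.91 (1.40 to 2.64) and was not called.

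The other goblet cell genes stayed under a TPM of 10 in both libraries. Muc13, a transmembrane mucin of the gut surface, had 6 and 426 reads, a fold of 73.1 (33.3 to 200). Clca1, a secreted metalloprotease of goblet cells, had 28 and 522 reads, a fold of 17.1 (11.7 to 25.9). Spink4, a goblet cell protein of the Kazal inhibitor family, had 0 and 43 reads, at least 12.8-fold. Fcgbp, a mucus protein that binds IgG, had 68 and 369 reads, a fold of 4.87 (3.75 to 6.41), and 8.55% of its 50-nt stretches are shared with 9530053A07Rik, so part of its reads is uncertain. Zg16, a lectin of goblet cell granules, had 3 and 9 reads, a ratio of 3.95 with an interval of 0.98 to 22.7.

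Around Muc2 on chromosome 7, the gel-forming mucins Muc5ac and Muc5b, which are made in the stomach and the airways, had larger ratios than Muc2 itself. Muc5ac had 17 and 313 reads, Muc5b 30 and 1106, and Muc6, the mucin of gastric glands, 0 and 2. Muc5b thus had more reads than Muc2 in E14-Sox2TA/WT and fewer in E14. In the Clca family on chromosome 3, Clca2 had 265 and 158 reads, and Clca3b had 12 and 223. Clca4b and Clca4a, which lie between Clca3b and Clca1, had 7 and 10 and 0 and 7.

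Brush border and enterocyte genes included Aqp8, which had the largest fold among the genes with reads in both libraries. Aqp8, a water channel of colonic and pancreatic epithelium and of liver, had 14 and 2537 reads and a TPM of 0.365 and 63.6, 174-fold higher (104 to 319). Lgals4, a galectin of the intestinal epithelium, was 13.2-fold higher (10.2 to 17.3), from a TPM of 1.33 to 17.6. Anpep, the brush border aminopeptidase N, which myeloid cells and fibroblasts also carry, was 3.54-fold higher (3.16 to 3.97), from 4.07 to 14.4. Vil1, the actin-bundling protein of microvilli, had 39 and 351 reads, a TPM of 0.514 and 4.19, and a fold of 8.15 (5.85 to 11.7). Cdh17, the intestinal cadherin, went against the group with 66 and 60 reads, a TPM of 0.786 and 0.641, and an interval of 0.56 to 1.17 that includes 1.

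Transporters, fatty acid binding proteins and digestive enzymes were at low levels in both libraries. Slc5a1, the sodium-glucose cotransporter, had 0 and 251 reads, at least 74.9-fold, at a TPM of 2.37 in E14-Sox2TA/WT. Slc15a1, the peptide transporter, had 16 and 120 reads, a fold of 6.77 (4.01 to 12.2). The fatty acid binding proteins Fabp1, shared with liver, and Fabp2, specific to the intestine, had 7 and 39 and 0 and 27 reads. Their TPM in E14-Sox2TA/WT was 2.83 and 1.03, with a fold of 4.99 (2.2 to 13.2) for Fabp1 and at least 8.06 for Fabp2. The meprin subunits differed in level, Mep1b with 9 and 290 reads and a fold of 32.4 (16.8 to 71.5), and Mep1a with 0 and 30 reads and at least 8.96-fold.

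Sis, Guca2b, Guca2a and Phgr1 were at or near 0 in both libraries, unlike Anpep and Slc5a1. Sis, the sucrase-isomaltase of enterocytes, had 0 and 2 reads, and Guca2b, the hormone uroguanylin, had 0 in both. Guca2a, which encodes guanylin, had 0 and 7 reads, and Phgr1, an epithelial protein of the gut, had 0 and 6. For these 4 genes the depth shows at most traces, and no fold is given for Sis and Guca2b. Gucy2c, the receptor of the guanylins, had a TPM of 0.493 and 1.04, and Cftr, the chloride channel it acts on, 0.928 and 1.52, a fold of 2.11 (1.49 to 3.02) and 1.64 (1.33 to 2.03), neither called.

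Among genes that reached a TPM of 1, crypt stem cell genes had a lower median log2 ratio than goblet and enterocyte genes. Most of the latter passed that filter in E14-Sox2TA/WT alone, so the groups are not compared on equal terms. Lgr5, the R-spondin receptor of crypt stem cells, which many other progenitors also use, had 385 and 460 reads and a TPM of 3.39 and 3.63, and its interval of 0.93 to 1.23 includes 1. Smoc2, a matricellular protein, was called higher at 2.2-fold (1.98 to 2.45), from a TPM of 7.35 to 16.2. Olfm4, a secreted glycoprotein, had 79 and 426 reads, a fold of 4.82 (3.78 to 6.21), and Ascl2, the stem cell transcription factor, 44 and 94, a fold of 1.92 (1.33 to 2.82). So the best known marker differed by less than its counting error, while Olfm4 differed by more. In Olfm4, 3.82% of the 50-nt stretches are shared with Gm6999.

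Of 39 receptors, ligands and partners of the set, 29 reached a TPM of 1, with a median log2 ratio of 0.25. Of 12 that reached 10, 2 were higher and 4 lower, against 10.8% and 18.7% of all genes tested. In the R-spondin pathway of crypt stem cells, Lgr4 had a TPM of 17.8 and 29.5, and Lgr6 of 1.94 and 1.21. Of the R-spondins, Rspo1 had a TPM of 2.96 and 1.57, Rspo2 of 5.27 and 2.87, and Rspo3 of 3.46 and 4.33. These 5 genes lay within 2-fold, and Rspo4 had 0 and 27 reads. Il22ra1, the epithelial receptor of interleukin-22, which induces Reg3 genes in the gut, had a TPM of 0.843 and 1.19.

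The enteroendocrine genes split. Chga, a granin of dense-core vesicles, had 2509 and 635 reads and a TPM of 54.6 and 12.4, 4.42-fold lower in E14-Sox2TA/WT (4.05 to 4.83). Chgb, a second granin, had 9679 and 2178 reads and a TPM of 169 and 34.1, 4.96-fold lower (4.74 to 5.20). Gcg, the precursor of glucagon and GLP-1, had 3 and 32 reads, a ratio of 9.78 with an interval of 3.06 to 49.9. Neurons also make both granins, and all 15 neuron markers had lower values in E14-Sox2TA/WT, with a summed TPM of 3967 and 660 and a median log2 ratio of -2.23. Of these markers, 5 lay above the log2 ratio of Chga, -2.06, and 6 below that of Chgb, -2.28. The part of neurons in the granin values was not tested. Of the partners in hormone processing, Pcsk2, Cpe, Scg2 and Scg3 were 5.54-, 3.88-, 4.38- and 5.54-fold lower, whereas Pcsk1, the convertase that makes GLP-1 from the Gcg product, had a TPM of 0.982 and 1.26. The receptors Gcgr, Glp1r and Glp2r had 18 and 21, 16 and 22, and 8 and 19 reads.

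**Figure D3:**
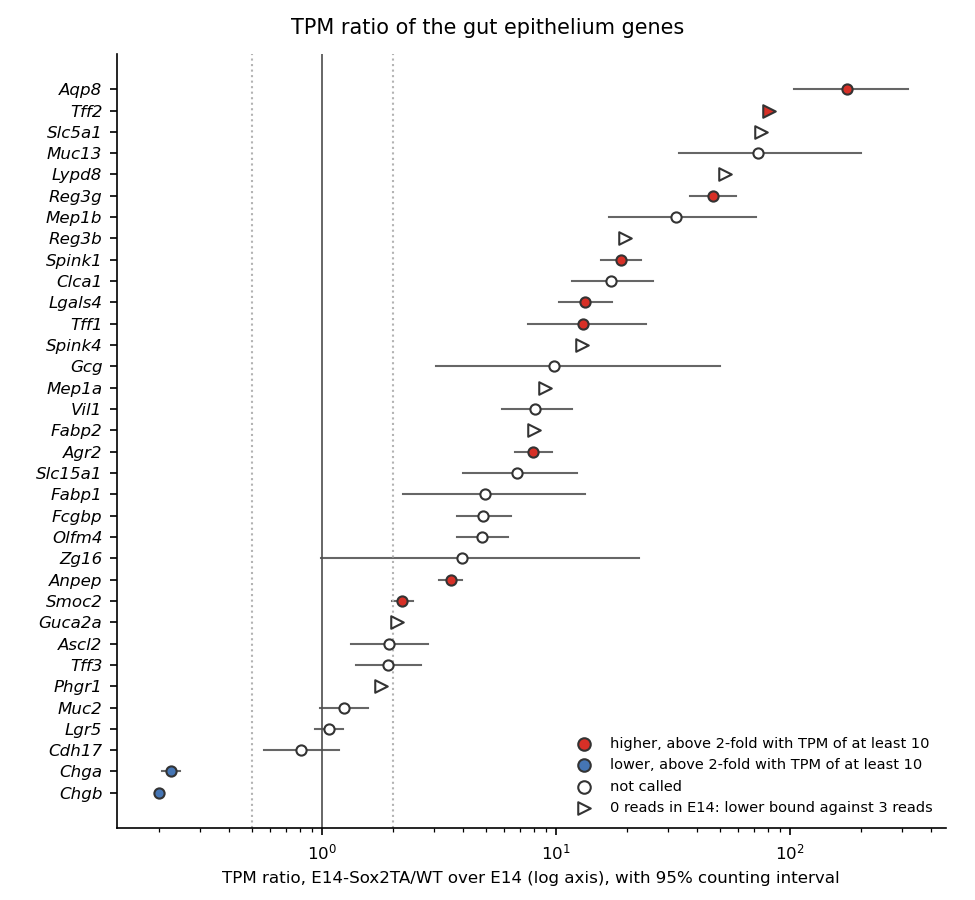
TPM ratio of E14-Sox2TA/WT over E14 on a log axis for the 34 genes with a fold or a lower bound, with 95% counting intervals, dotted lines at 2-fold and triangles where E14 had 0 reads. Of 25 genes with a ratio, 19 intervals lie above 1, 2 below (Chga and Chgb) and 4 include it (Muc2, Zg16, Cdh17 and Lgr5), and Aqp8 is highest at 174.

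Transcription factors of the gut endoderm were summarised from a list of 24. A TPM of at least 1 was reached by 20, whose median log2 ratio was 1.44. Of these, 13 were more than 2-fold above E14 and 1 below, against 19.3% and 18.9% of all genes. Several, among them Cdx1, Cdx2 and Hnf4a, reached that TPM in E14-Sox2TA/WT alone, which favours that direction. Among the 8 that reached a TPM of 10, Gata4, Klf4 and Elf3 were higher and Sox9 was lower. Over all genes tested, 10.8% were called higher and 18.7% lower. Gata4, which sets proximal intestinal identity and also acts in heart and yolk sac endoderm, was 26.4-fold higher (19.5 to 36.7), from a TPM of 0.511 to 13.5. Klf4, a factor of goblet cells and of pluripotent cells, was 3.10-fold higher (2.81 to 3.44). Klf5 went the other way, with 1298 and 927 reads, 1.56-fold lower (1.44 to 1.7), and was not called. Elf3, an epithelial factor, was 2.68-fold higher (2.50 to 2.88). Sox9, a factor of crypt cells that glia and cartilage also express, was 2.61-fold lower, from 44.1 to 16.9.

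The defining factors Cdx1 and Cdx2 had 0 reads in E14 and 234 and 165 in E14-Sox2TA/WT, a TPM of 4.97 and 2.85, at least 69.9-fold and 49.3-fold. Hnf4a, a nuclear receptor of enterocytes, liver and visceral endoderm, had a TPM of 0.288 and 4.33, a fold of 15 (10.5 to 22.3). Gata6 had a TPM of 0.718 and 6.96, Foxa3 of 0.531 and 3.32, Nr5a2 of 0.771 and 5.50, and Sox17 of 2.15 and 8.16. All of these stayed below a TPM of 10 in both libraries. The pioneer factors of early endoderm, which the floor plate of the neural tube also uses, were nearer each other, Foxa1 at 43.9 and 42 and Foxa2 at 35.3 and 57.2. Isx had 0 and 18 reads, while Pdx1, of duodenum and pancreas, had 5 and 6 and Hnf4g 6 and 6.

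Factors of the secretory lineage showed no common direction, with a median log2 ratio of 0.26 over 8 of 11 genes. Creb3l1 was higher at 3.44-fold (2.96 to 4.0), from a TPM of 4.04 to 13.9. Insm1, which acts in enteroendocrine cells and in neurons, was 5.07-fold lower, from a TPM of 28.8 to 5.69. Atoh1, which starts the secretory lineage, had 4 and 11 reads, and Spdef, which matures goblet cells, had a TPM of 0.869 and 2.92. Pou2f3, the tuft cell factor, had 6 and 161 reads, a fold of 24.1 (10.8 to 66.6). Neurog3 and Neurod1, factors of endocrine precursors, had a TPM of 1.0 and 1.57 and of 5.73 and 3.52.

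Other genes of enterocytes had a median log2 ratio of 1.71 over 16 of 30. Apoa1, a lipoprotein of intestine, liver and yolk sac, was 25-fold higher (19.3 to 33), from a TPM of 2.45 to 61.1, and Apoa4, beside it on chromosome 9, was at least 267-fold higher, from 0 to 896 reads. Car4, a membrane carbonic anhydrase, was 2.34-fold higher (2.21 to 2.48), from 50.3 to 118. Gpa33, a surface antigen of intestinal epithelium, had 15 and 656 reads. Alpi, Treh, Slc10a2, Ces2a and Cyp3a11, picked out after their values were seen, were listed at 0 in both libraries, and Alpi, the intestinal alkaline phosphatase, and Treh, trehalase, are brush border enzymes as Sis is. Lct, which encodes lactase and was picked out in the same way, was lower in E14-Sox2TA/WT. It had 62 and 12 reads, a fold of 6.01 (3.21 to 12.3), at a TPM of 0.414 and 0.069.

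Other goblet, Paneth, endocrine and tuft cell genes were mixed, with a median log2 ratio of 0.17 over 12 of 23. Sct, the hormone secretin, was 37.8-fold higher (18.1 to 95), from a TPM of 0.526 to 19.9. Sst, somatostatin of endocrine cells and interneurons, was 4.87-fold lower, from 86.6 to 17.8, and Dclk1, of tuft cells and neurons, was 3.56-fold lower. Of 47 relatives of the set, 30 reached a TPM of 1 with a median of 0.79. Of 17 that reached 10, 5 were higher and 3 lower, against 10.8% and 18.7% of all genes tested. Lgals2, a galectin of the gut, was 41.1-fold higher (23.9 to 77.7), from 0.853 to 35.1. Fabp7, the fatty acid binding protein of neural progenitors, was 3.53-fold lower, from 2497 to 708. Dpp4, a brush border peptidase that inactivates GLP-1 and is widely expressed, was 24.3-fold higher (19.8 to 30.1), from 0.75 to 18.2.

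Markers of other epithelia and of yolk sac endoderm were also mostly above E14. All 16 simple epithelium markers had a TPM of at least 1, with a summed TPM of 679 and 1676 and a median log2 ratio of 0.88. The highest of them lay at 1.98, and 13 of the 28 gut genes lay above it. Of the 28, 15 reached a TPM of 1 in E14-Sox2TA/WT alone, which favours high ratios. The 16 markers all reached it in E14, so this count partly reflects the filter. Krt8 and Krt18, keratins of simple epithelia, were 3.62-fold and 3.99-fold higher. All 16 markers of visceral endoderm, yolk sac and liver had log2 ratios above 0, with a median of 2.28. Their summed TPM was 1323 and 1889, most of it from Apoe at 1261 and 1315. Afp, their defining protein, was 247-fold higher (174 to 364), from a TPM of 0.614 to 151, and Cubn, the absorptive receptor of yolk sac and kidney, was 38.1-fold higher (32.6 to 44.9). The median of 2.28 lay above that of the gut genes, and several gut genes, among them Fabp1, Vil1 and Hnf4a, are used in both tissues. Several of the 16 markers, among them Afp, Cubn, Fgb and Fgg, reached a TPM of 1 in E14-Sox2TA/WT alone. For those a ratio above 0 was fixed by the filter, so both medians partly reflect it.

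Stomach, airway and pancreas markers had different medians. Most of the stomach and airway markers that reached a TPM of 1 did so in E14-Sox2TA/WT alone, which favours high ratios. The 9 stomach markers of 14 that reached a TPM of 1 had a median log2 ratio of 0.97. Over the list the summed TPM was 32.8 and 128, and Psca, 36.8-fold higher (28 to 49.2), held 92.9 of the latter. Muc1 was 1.47-fold lower (1.35 to 1.59) and held 24.98 of the E14 sum. It was the only 1 of the 9 with a log2 ratio below 0. Pgc and Gkn2, made by gastric cells, had 0 reads in E14 and 81 and 46 in E14-Sox2TA/WT. The 11 airway and lung markers of 13 had a median of 1.79 and a summed TPM of 157 and 239. Among them Bpifa1 was 6.35-fold higher (5.67 to 7.13) and Ltf 73.8-fold higher (56.8 to 97.6). Nkx2-1, also a factor of ventral forebrain, was 94.0-fold lower, from a TPM of 74.2 to 0.789. With Foxj1, at 61.8 and 58.7, Nkx2-1 held most of the airway and lung sum in E14. The 6 pancreas markers of 15 had a median of 0.34 and a summed TPM of 11 and 16.5, with 4 markers at 0 in both libraries.

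Macrophages, neutrophils and stroma can come from the host. All 15 macrophage and neutrophil markers had log2 ratios above 0, with a median of 0.85 and a summed TPM of 1012 and 1729, and 13 of 14 mesenchyme and smooth muscle markers did, with a median of 0.82 and 790 and 1841. The part of any of these tissues in the values of the gut genes was not tested.

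**Figure D4:**
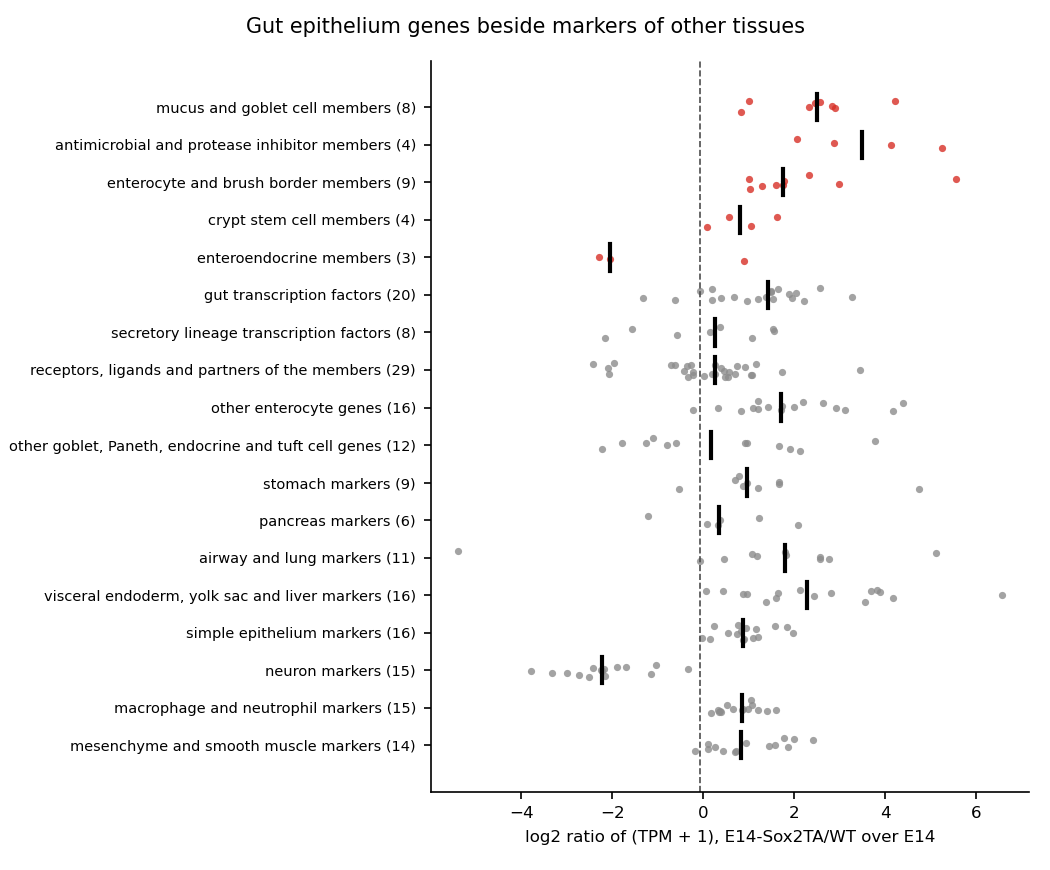
Log2 ratio of TPM with 1 added, E14-Sox2TA/WT over E14, over genes that reached a TPM of 1 in either library, with 1 point per gene, a bar at each list's median and the number of genes in brackets. The dashed line marks the median of all 18558 genes, -0.06, and the lists run from 3.50 for the antimicrobial and inhibitor genes to -2.23 for neuron markers.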

How the data were processed

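RNA-seq of polyA RNA gave 1 library per group, grouped by the genotype label. Per the submitters' processing notes, reads were handled with bcl2fastq 2.20.0, Trimmomatic, HISAT2 2.1.0 and StringTie 2.1.3b on mm10, and whether counting used strand is not given in the sources used here. The authors deposited whole-number read counts per gene without normalization. FPKM, also deposited, divides counts by library size and transcript length, and the TPM deposited by the authors is set to the same total in each library. The TPM ratio was computed for every gene, and log2 ratios had 1 added to each TPM. Calls needed more than a 2-fold ratio and a TPM of 10 or more in a library, following the methods of the study. Medians used genes that reached a TPM of 1 in either library. The 95% Clopper-Pearson intervals were taken from the read counts and rescaled to TPM. A count of 0 was set to 3 reads for the lower bounds only, while calls and log2 ratios kept the 0. Depth was 50529171 and 49030281 reads.

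Genes and lists were chosen with earlier results of these data known. All 36 genes were reported. Of other lists, the transcription factors with a TPM of at least 1, the 3 genes with the highest TPM, the 3 with the largest log2 ratio and direct partners could be named. Those described outside these rules for being low or at 0 (Isx, Hnf4g, Pdx1, Atoh1, Lct) or as chromosomal neighbours (Clca, Muc5 and Muc6 genes) were chosen after their values were seen. Some genes and 1 motif are not reported here. Promoters came from RefSeq GRCm38.p6, where 25 of the 36 genes had an entry, and positions from a RefSeq gene table, which matched 45675 of 45777 identifiers. Motifs were searched on both strands of the 250 bases before the start, and 50-nt stretches were compared among GENCODE transcripts. Alternatives covered pseudocount, FPKM, scaling of counts (library total, edgeR's TMM, median of ratios), filters, fold, centring, transcript length and chromosomes. Scripts were tested on simulated data with 200 changed genes. Tools were R 4.3.3 with edgeR 4.0.16, and Python 3.11.15 with scipy 1.17.1 and pandas 2.3.3.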

Additional observations from a re-analysis of the deposited data

How the results depend on the processing

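No paired analysis was possible because each group holds 1 library, and for the same reason no library could be left out. For the main counts and medians, 58 of 72 alternatives stayed within the order-statistic interval of the median over genes or within 1.5 times the count, 14 moved and 0 reversed. The median log2 ratio of the gut genes, 1.77, was 3.24 with a pseudocount of 0.1, 0.49 with 10, 2.87 at a TPM of at least 10 and, in an alternative added after seeing the data, 0.88 relative to simple epithelium markers. The 9 higher genes became 23 at a TPM of at least 1, 28 without a filter and 1 where both libraries had to reach a TPM of 10. The 2 lower genes became 0 without the enteroendocrine genes, also added after seeing the data. For the gut transcription factors, the median of 1.44 was 2.12 with a pseudocount of 0.1, 0.40 with 10 and 0.44 at a TPM of at least 10, and the 3 higher genes became 13, 15 and 1 under the same filters. The 1 lower factor became 2 at a fold of 1.5 and 0 at a fold of 3. For single genes, 132 of 224 alternatives stayed and 92 moved, with 0 changes of sign. Among these moves were small shifts in genes with 0 reads in E14, as for Tff2, from 4.22 to 4.29 with TMM. Genes with fewer than 50 reads in E14 are limited by depth, and 14 of the 36 reached that count. Short transcripts lay higher as a class, since 1360 nuclear genes under 750 nt had a median 0.47 above that of all genes, and the length-corrected median of the gut genes was 1.80. With 0 reads in E14 set to 3 reads, an alternative added later, the number of higher genes and the median stayed within the same limits.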
